A study of Mus musculus with 6 samples.

Results

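The genes described here are the 44 mouse genes whose symbol on the array begins with Nduf, out of 18193 genes with a symbol of their own on the platform. Membership is by symbol, and each gene is read through 1 probe set, the brightest over the 6 arrays among those with a single symbol. The name stands for the NADH dehydrogenase of the respiratory chain, complex I. By role, 34 of them encode subunits of the complex, with 6 core subunits, 8 accessory subunits of the matrix arm, 19 of the membrane arm and Ndufab1, which lies in both arms. A further 8 are Ndufaf genes, which encode assembly factors. The last pair is Ndufa4, now placed in complex IV, and its paralog Ndufa4l2, and both are given apart from the subunits.

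Complex I sits in the inner mitochondrial membrane and has the shape of an L. Its matrix arm takes electrons from NADH and hands them along a chain of iron-sulfur clusters to ubiquinone, and its membrane arm pumps protons. Core subunits carry out this chemistry, accessory subunits surround and stabilise them, and assembly factors build the complex without remaining in it. Core subunits of the pump are encoded in mitochondrial DNA, while all Nduf genes lie in the nucleus. In liver, where fatty acid oxidation yields much NADH, the complex is the main point at which this NADH enters the respiratory chain.

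Liver RNA was measured in BKS (C57BL/KS) and NZO mice, with 3 arrays per strain. The titles mark the BKS samples as wt (wild type) and give no genotype for the NZO samples. All mice were males of 18 weeks, fed standard chow, with no other treatment, and the study's design text says that NZO mice have by then developed obesity, diabetes and the metabolic syndrome. NZO is an inbred strain in which these traits come from many loci, so the strains differ across the genome and not in a single allele. The design text also calls the mice littermates, without naming the litters. Since no label says that each array came from its own mouse, the p-values measure the spread between these samples. Whole pieces of liver were used, so fewer cells of a type and less RNA per cell cannot be told apart.

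Values are log2 expression, and differences are given as NZO minus BKS, so a negative log2 fold change means lower in NZO. All 6 hepatocyte markers were bright, with a mean of 13.63 to 13.88 across BKS arrays and 12.98 to 14.01 across NZO arrays. Of 31 measured markers of 8 other cell types, 18 had a mean under 6 and 0 passed the test between strains. The 5 endothelial markers averaged 6.45 to 6.73 in BKS and 6.77 to 7.48 in NZO. The 3 lymphocyte markers averaged 5.46 to 5.49 in BKS and 5.60 to 5.80 in NZO. NZO replicate 1 stood apart in the control probe sets: its spiked-in hybridization controls averaged 7.88, against 8.90 to 11.21 on the other 5 arrays, and its genes spanned 5.22 from the 10th to the 90th percentile, against 5.87 to 6.29. The probes for beta-actin differed by 1.72 to 2.33 between the 3' and the 5' end in BKS and by 1.29 to 1.39 in NZO, a measure of RNA or cDNA integrity. The same measure for Gapdh was 0.45 to 0.98 in BKS and -0.04 to 0.14 in NZO. The 18S ribosomal RNA control read 11.92 and 9.47 in BKS replicates 2 and 3, against 4.93 to 6.14 on the other 4 arrays. BKS replicates 2 and 3 also had the highest subunit medians, 12.03 and 11.96. The part of these differences in the results that follow was not tested.

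Complex I subunit transcripts were lower in NZO liver as a group, but no single gene passed the test, and bright genes at large were lower as well. The median log2 fold change of the 34 subunit genes was -0.42, and 32 of them lay below 0. It was -0.14 after quantile normalization again and -0.09 after cyclic loess, with 25 and 23 below 0. Over all 18193 genes the median was -0.03 and 55.1% lay below 0. Nearly all subunits are bright, 32 of 34 with a mean of 10 or more, and among all 1821 genes at that level the median was -0.32 and 83.4% lay below 0. With limma over all genes, 0 of the 44 Nduf genes passed at an adjusted p below 0.05, against 0.742% of all genes. At an unadjusted p below 0.05, 5 of the 34 subunits were lower in NZO, against 8.24% of all genes. Of the 1821 genes at 10 or more, 250 had such a p in either direction, a share near that of the subunits. All 3 NZO arrays lay below all 3 BKS arrays for 7 of the 34 subunits. That was so for 10.9% of all genes and for 19.8% of genes at 10 or more, so the subunits' share of 20.6% was near that of other bright genes.

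The subunits differed among themselves less than bright genes at large: their log2 fold changes had an SD of 0.26, against 0.44 for genes at 10 or more. This was not particular to complex I. Among genes at 10 or more, the SD was 0.21 for complexes II to V, for the mitochondrial ribosome and for the cytosolic ribosome. These SDs are a description over genes of the same arrays, with no test. NZO replicate 1 was the lowest of the 6 arrays for 32 of the 34 subunits, and for 91.0% of genes at 10 or more. Set against each gene's mean over the 6 arrays, the median subunit stood at 0.03, 0.36 and 0.31 in the BKS arrays and at -0.89, 0.11 and 0.09 in the NZO arrays. Genes at 10 or more stood at -0.01, 0.24 and 0.25 in BKS and at -0.84, 0.20 and 0.14 in NZO. The plot of these deviations shows that complexes II to V and the mitochondrial ribosome have the same low array. Without NZO replicate 1 the subunit median was -0.07, with 24 of 34 below 0, and the median of genes at 10 or more was 0.01.

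**Figure D1:**
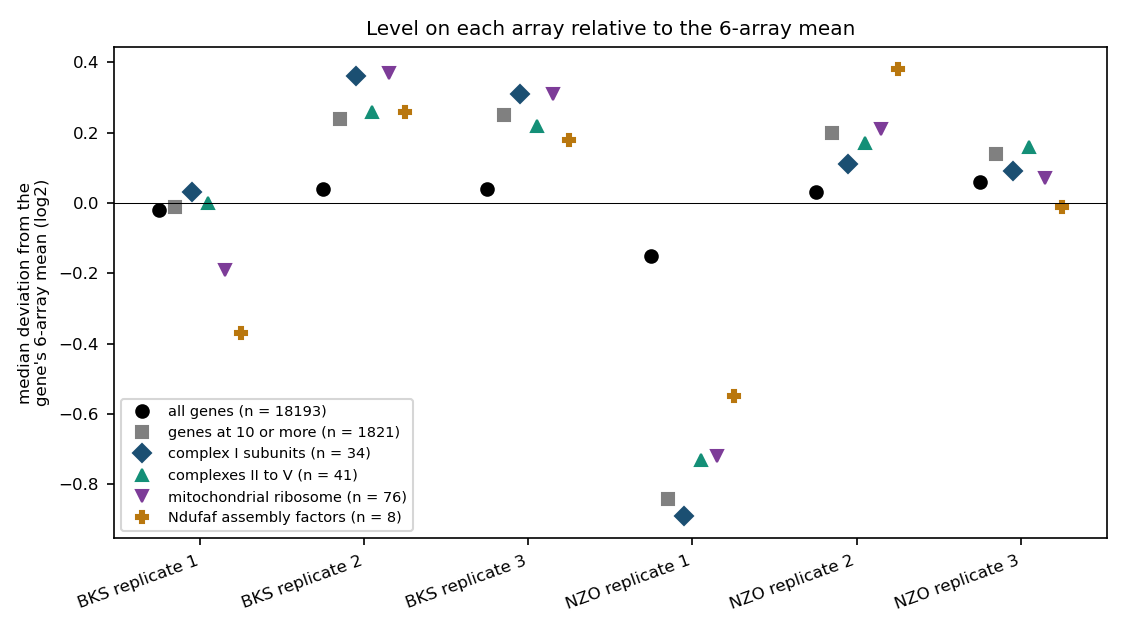
Median deviation of each gene list from its genes' 6-array means (log2, vertical axis) on each of the 6 arrays (horizontal axis), with 1 symbol per list. Complex I subunits stand at -0.89 on NZO replicate 1 and between 0.03 and 0.36 on the other 5 arrays, and genes at 10 or more stand at -0.84 on the same array.

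The titles number the arrays, and only number 1 occurs in both strains, as BKS replicate 1 and NZO replicate 1. These arrays had the lowest hybridization controls of their strains, 8.90 and 7.88. A fit with the arrays titled number 1 as a block therefore stands beside the plain one, as does a comparison of the other 2 arrays against 2, whose BKS side is the pair with the high 18S control. With the block, 3 of 34 subunits passed at an adjusted p below 0.05 and were lower in NZO, against 5.04% of all genes and 8.24% of genes at 10 or more. The subunits' share was thus near that of other bright genes. The 3 that passed are core subunits. Between the 2 against 2 arrays, the subunit median was -0.20 with 28 of 34 below 0, the median of genes at 10 or more was -0.08, and 0 of 34 subunits passed, against 5.01% of all genes. The number 1 arrays alone, which give a difference and no test, differed by a median of -0.87 for the subunits and -0.82 for genes at 10 or more.

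On the probe sets used, 3 of the 6 core subunits had all NZO arrays below all BKS arrays, Ndufs7, Ndufs8 and Ndufv1. The strains overlapped for the other 3, Ndufs3, Ndufv2 and Ndufs1. All NZO arrays lay below all BKS arrays for 10.9% of all genes and 19.8% of genes at 10 or more. Other probe sets of Ndufs7, Ndufv1 and Ndufv2 did not keep to this split. Promoters of Ndufs7, Ndufs8 and Ndufv1 are shown because these are the subunit genes that passed with the block. Sequences run from 250 bases before to 50 bases after the annotated start, 5' to 3' along the gene, from RefSeq on GRCm38.p6. Capitals mark matches to 4 motifs searched on both strands: GCGCA and GCGC with any base between them for NRF1, ACCGGAAG for GABPA, AAGATGGC for YY1 and AAGGTCA for ESRRA. No matches overlapped in the promoters of Nduf genes.

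Ndufs7, chr10:80249199-80249498, plus strand: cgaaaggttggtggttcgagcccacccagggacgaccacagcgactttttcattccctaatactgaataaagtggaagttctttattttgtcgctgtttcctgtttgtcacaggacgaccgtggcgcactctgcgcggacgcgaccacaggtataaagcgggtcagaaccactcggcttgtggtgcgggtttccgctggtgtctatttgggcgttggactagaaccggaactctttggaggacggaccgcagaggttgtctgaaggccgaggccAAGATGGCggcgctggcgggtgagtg

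Ndufs8, chr19:3912725-3913024, minus strand: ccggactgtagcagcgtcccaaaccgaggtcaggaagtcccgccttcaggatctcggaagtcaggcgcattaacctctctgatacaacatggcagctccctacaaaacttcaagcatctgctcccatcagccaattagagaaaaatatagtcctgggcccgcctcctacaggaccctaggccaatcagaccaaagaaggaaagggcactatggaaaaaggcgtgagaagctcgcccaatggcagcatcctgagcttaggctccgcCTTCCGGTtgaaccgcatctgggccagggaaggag

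Ndufv1, chr19:4012706-4013005, minus strand: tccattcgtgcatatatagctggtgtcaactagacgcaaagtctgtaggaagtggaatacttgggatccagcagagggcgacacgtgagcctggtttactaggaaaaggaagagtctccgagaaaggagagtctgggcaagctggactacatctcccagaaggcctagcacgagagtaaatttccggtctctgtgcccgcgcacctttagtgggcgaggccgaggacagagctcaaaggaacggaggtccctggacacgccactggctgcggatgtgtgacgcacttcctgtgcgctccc

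The Ndufs7 promoter holds the YY1 letters, beginning 25 bases into the transcript. In Ndufs8 the GABPA letters begin at base 16 of the transcript, on the opposite strand. Ndufv1 holds none of the 4 motifs in this window. A match is a description of letters, not a binding site, and the 3 promoters share no motif of the 4.

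Ndufs7 carries the last iron-sulfur cluster before ubiquinone. It measured 11.34, 11.97 and 11.61 in the BKS arrays and 9.80, 11.10 and 11.10 in the NZO arrays. All NZO arrays were below all BKS arrays, with NZO replicate 1 lowest. The means were 11.64 ± 0.32 in BKS and 10.66 ± 0.75 in NZO (SD, n = 3 each), a log2 fold change of -0.98 (95% interval -1.85 to -0.10), or 1.97-fold lower. In limma the adjusted p was 0.379, and with the block it was 0.0284. Between the 2 against 2 arrays the difference was -0.69, with an adjusted p of 0.0762. Without NZO replicate 1 the difference was -0.54. A second probe set of Ndufs7 gave -0.49, with overlapping strains.

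Ndufs8, which holds a pair of iron-sulfur clusters on the same route, had the tightest BKS arrays of the core, at 12.89, 12.84 and 12.84. Its NZO arrays read 11.61, 12.24 and 12.38. The strains did not overlap, and even the highest NZO array lay below all BKS arrays. Means were 12.86 ± 0.03 in BKS and 12.08 ± 0.41 in NZO (SD, n = 3 each), a log2 fold change of -0.78 (95% interval -1.30 to -0.26), or 1.72-fold lower. The limma adjusted p was 0.220, and 0.0413 with the block. The 2 against 2 arrays differed by -0.53 (adjusted p = 0.110). Its 5 other probe sets ranged from -0.12 to -0.78, and 3 of those 5 had no overlap between strains. Those 3 have the suffix _x_at (-0.78 and -0.475) or _a_at (-0.465). The probe sets without such a suffix gave -0.31 and -0.12, with overlapping strains.

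Ndufv1 binds NADH and the flavin that takes its electrons. Its BKS arrays read 11.71, 12.21 and 12.14 and its NZO arrays 10.73, 11.70 and 11.63. The strains were separated by a narrow gap, since NZO replicate 2 lay just under BKS replicate 1. Means were 12.02 ± 0.27 and 11.35 ± 0.54 (SD, n = 3 each), a log2 fold change of -0.66 (95% interval -1.35 to 0.02), with a limma adjusted p of 0.451 and 0.0415 with the block. The 2 against 2 arrays differed by -0.50 (adjusted p = 0.120), and without NZO replicate 1 the difference was -0.35. Other probe sets of Ndufv1 gave -0.67 and -0.32, both with overlapping strains. The probe sets used for Ndufs8 and Ndufv1 have a suffix that marks probes shared with other sequences.

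On the probe sets used, the other core subunits differed between strains mainly on NZO replicate 1. Ndufs3, a core subunit near the ubiquinone site, read 12.16, 12.28 and 12.32 in BKS and 10.98, 12.25 and 12.29 in NZO. NZO replicates 2 and 3 lay inside the BKS range, and the log2 fold change of -0.41 (95% interval -1.23 to 0.40, limma adjusted p = 0.725) became -0.04 between the 2 against 2 arrays. Ndufv2, which carries an iron-sulfur cluster beside the flavin site, read 12.02, 12.08 and 12.31 in BKS and 11.11, 12.24 and 12.16 in NZO. Again only NZO replicate 1 lay below the BKS arrays, and the difference was -0.30 (95% interval -1.02 to 0.42, limma adjusted p = 0.779) and 0.00 between the 2 against 2 arrays. Other probe sets of Ndufv2 gave -0.60 with no overlap and -0.52 with overlapping strains. Ndufs1, the largest matrix-arm subunit, read 10.61, 10.73 and 10.94 in BKS and 10.12, 11.00 and 10.85 in NZO, a difference of -0.10 (95% interval -0.69 to 0.48, limma adjusted p = 0.928). Its NZO replicate 2 was the highest of the 6 arrays. The plot of core subunits by array shows both patterns side by side. No test compared the 3 lower core subunits with the 3 others.

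**Figure D2:**
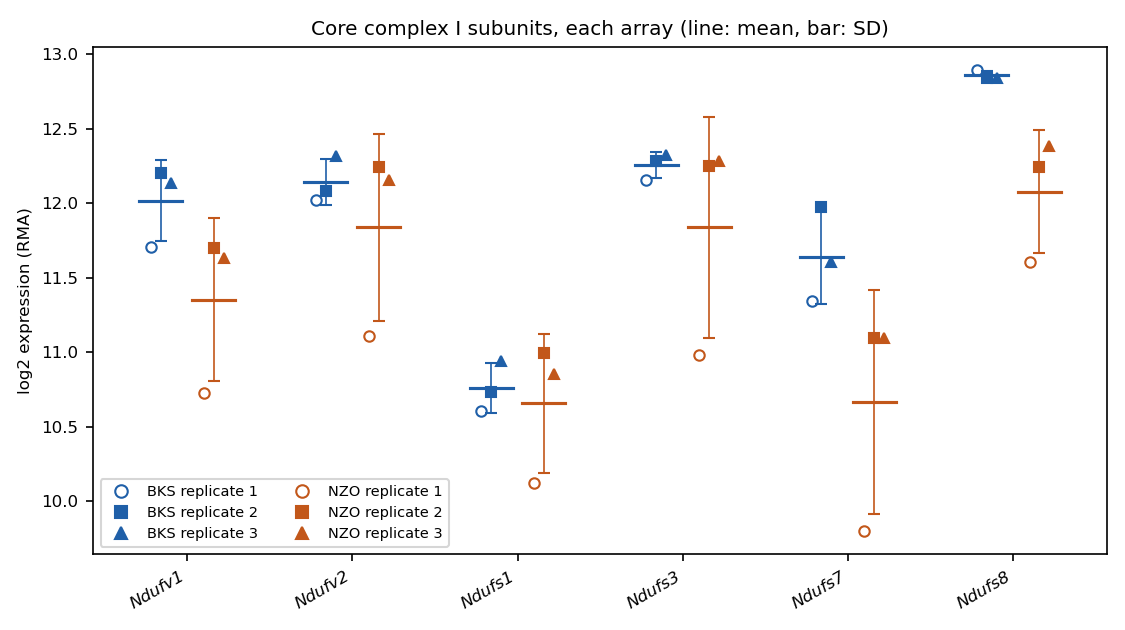
Log2 expression of the 6 core subunit genes (vertical axis) on each BKS and NZO array, with the strain mean and SD (n = 3 each). Ndufs7, Ndufs8 and Ndufv1 have every NZO array below every BKS array, while for Ndufs1, Ndufs3 and Ndufv2 NZO replicate 1 alone lies under the BKS range.

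Accessory subunits of the matrix arm all lay below 0, with a median log2 fold change of -0.55 over 8 genes and a range from -0.70 to -0.24. Of genes at 10 or more, 83.4% lay below 0, with a median of -0.32. NZO replicate 1 was the lowest array for all 8. Without it their median was -0.18, and that of genes at 10 or more was 0.01. The strains did not overlap for 1 of the 8, or 12.5%, against 10.9% of all genes and 19.8% of genes at 10 or more. Ndufv3, a small subunit bound to the NADH-binding module, was the only one of the 8 whose strains did not overlap, with 12.96, 12.96 and 12.91 in BKS and 11.82, 12.37 and 12.58 in NZO. Its difference of -0.68 (95% interval -1.19 to -0.18) had a limma adjusted p of 0.279, and 0.0589 with the block. The 2 against 2 arrays differed by -0.45.

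Ndufa5, which binds the arm near the ubiquinone module, read 11.59, 12.10 and 11.86 in BKS and 10.46, 11.60 and 11.43 in NZO. Its strains touched, as NZO replicate 2 reached BKS replicate 1, and the difference was -0.69 (limma adjusted p = 0.471, and 0.0598 with the block). A second probe set of Ndufa5 gave -0.19, with NZO replicate 2 the highest array. Ndufa2, a thioredoxin-like subunit, read 11.32, 11.96 and 11.56 in BKS and 10.02, 11.39 and 11.34 in NZO, a difference of -0.70 with an adjusted p of 0.557. Ndufa6 holds an acyl carrier protein on the arm, and read 11.77, 12.06 and 12.08 in BKS and 10.60, 11.72 and 11.82 in NZO (difference -0.59, adjusted p = 0.566). Only NZO replicate 1 lay below the BKS arrays for Ndufa2, and for Ndufa6 replicates 1 and 2 did. Ndufa12, which takes the place of the assembly factor Ndufaf2 in the finished complex, read 12.67, 12.60 and 12.47 in BKS and 11.36, 12.32 and 12.50 in NZO. Its difference of -0.52 (adjusted p = 0.577) became -0.12 between the 2 against 2 arrays, and other bright probe sets gave -0.28 and 0.09. Without NZO replicate 1 the differences were -0.34 for Ndufa5, -0.26 for Ndufa2, -0.20 for Ndufa6 and -0.17 for Ndufa12. Ndufa9, Ndufa7 and Ndufs4 differed by -0.46, -0.30 and -0.24, all with overlapping strains.

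Membrane-arm accessory subunits had a median of -0.42 over 19 genes, with 17 below 0, or 89.5%, against 83.4% of genes at 10 or more. All NZO arrays lay below all BKS arrays for 3 of them, or 15.8%. That was so for 10.9% of all genes and 19.8% of genes at 10 or more. Ndufa13, also known as GRIM-19, read 13.12, 13.20 and 13.26 in BKS and 12.16, 12.94 and 12.82 in NZO, a difference of -0.55 (95% interval -1.08 to -0.02, limma adjusted p = 0.419). Ndufb9 anchors an acyl carrier protein at the far end of the membrane arm and read 12.83, 13.04 and 12.89 in BKS and 12.01, 12.60 and 12.65 in NZO (difference -0.50, adjusted p = 0.425). On these probe sets the NZO arrays lay below the BKS arrays, and replicates 2 and 3 by less than replicate 1. A second probe set of Ndufb9, about as bright, gave -0.18, with NZO replicates 2 and 3 above every BKS array.

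Ndufb11, an X-linked single-pass membrane subunit, read 13.08, 13.11 and 12.87 in BKS and 11.79, 12.78 and 12.87 in NZO. Its strains met at 12.87 without crossing, and the difference was -0.54 (limma adjusted p = 0.559), with -0.61 and -0.32 on other probe sets. Ndufa3 read 12.82, 12.99 and 13.13 in BKS and 11.99, 12.58 and 12.82 in NZO (difference -0.52, adjusted p = 0.473). Ndufb3 read 11.21, 11.62 and 11.44 in BKS and 10.17, 11.17 and 11.21 in NZO (difference -0.57, adjusted p = 0.538). Both are small membrane subunits, and their strains overlapped only at the highest NZO and the lowest BKS array. Without NZO replicate 1 the differences were -0.31 for Ndufa13, -0.29 for Ndufb9, -0.19 for Ndufb11, -0.28 for Ndufa3 and -0.23 for Ndufb3. The other 12 members below 0 ranged from -0.54 for Ndufa1 to -0.17 for Ndufb1, and all of them had overlapping strains.

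Ndufs5 was the bright subunit with a difference above 0. It is a cysteine-rich protein on the face toward the intermembrane space. Its promoter is shown for contrast with the core genes, and holds the NRF1 letters from base -98 and the ESRRA letters, on the opposite strand, from base -228, counted from the start.

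Ndufs5, chr4:123718137-123718436, minus strand: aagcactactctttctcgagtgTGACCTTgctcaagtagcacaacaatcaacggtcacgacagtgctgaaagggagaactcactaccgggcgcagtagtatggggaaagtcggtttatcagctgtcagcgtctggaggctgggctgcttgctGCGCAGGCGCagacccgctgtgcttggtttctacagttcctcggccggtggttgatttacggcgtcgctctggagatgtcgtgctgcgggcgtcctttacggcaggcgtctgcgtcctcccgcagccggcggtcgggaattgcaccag

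Ndufs5 read 10.46, 11.13 and 11.27 in BKS and 10.86, 11.46 and 11.54 in NZO. Here BKS replicate 1 was the lowest array, where for the other bright subunits it was NZO replicate 1. The difference was 0.33 (95% interval -0.32 to 0.99, limma adjusted p = 0.725), with overlapping strains, and 0.30 between the 2 against 2 arrays. Without BKS replicate 1 it was 0.09, without NZO replicate 3 it was 0.21, and without NZO replicate 1 it was 0.55. A probe set that Ndufs5 shares with a pseudogene gave 0.26. Ndufb4 was the other subunit above 0, but its single-symbol probe set is dim, with 4.60, 4.36 and 4.12 in BKS and 4.64, 4.24 and 4.49 in NZO (difference 0.10, adjusted p = 0.903). Bright probe sets that Ndufb4 shares with related genes gave -0.34 and -0.21. Ndufa11 and Ndufs6, membrane-arm and matrix-arm subunits, were measured only by probe sets shared with copies, at -0.40 and -0.49, and are not among the 44.

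Ndufab1 is the mitochondrial acyl carrier protein, which also serves mitochondrial fatty acid synthesis. It read 11.39, 11.88 and 11.86 in BKS and 10.99, 12.06 and 11.85 in NZO, a difference of -0.07 (95% interval -0.78 to 0.63, limma adjusted p = 0.959). NZO replicate 2 was the highest of the 6 arrays. Ndufa4, the complex IV protein, read 11.93, 12.52 and 12.78 in BKS and 11.23, 12.69 and 12.63 in NZO (difference -0.23, adjusted p = 0.896), and 0.01 between the 2 against 2 arrays. Ndufa4l2, known as a target of the hypoxia response, was dim, with 5.60, 5.76 and 5.81 in BKS and 5.74, 5.92 and 6.39 in NZO (difference 0.29, adjusted p = 0.649). The plot of fold changes places all 44 genes by role.

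**Figure D3:**
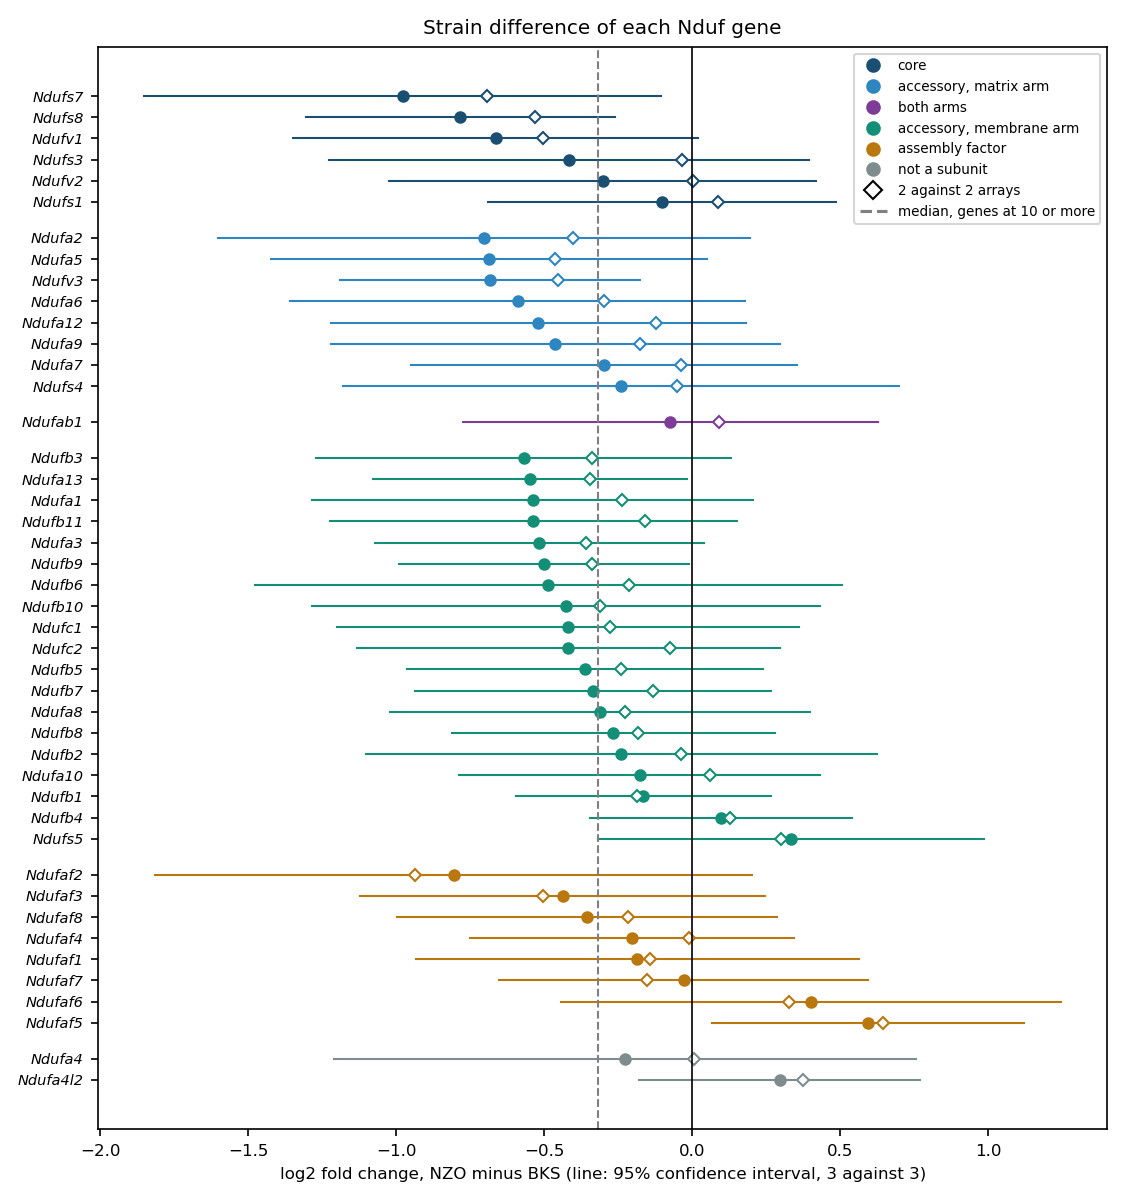
Log2 fold change (NZO minus BKS, horizontal axis) with its 95% interval for each of the 44 Nduf genes (vertical axis), grouped by role, from limma with 3 arrays per strain. Open diamonds give the 2 against 2 arrays and the dashed line the median of genes at 10 or more, -0.32. Most subunits lie between -0.70 and 0, with Ndufs7 at -0.98 and Ndufs5 at 0.33, and the Ndufaf genes spread from -0.81 to 0.59.

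The 8 Ndufaf genes had a median log2 fold change of -0.20, with 6 below 0. In limma 0 of 8 passed, 1 had an unadjusted p below 0.05, against 11.4% of all genes, and 1 passed with the block and was lower. Since 7 of the 8 have means between 6.5 and 9.5, the 6041 genes in that range are the nearer background, and those had a median of -0.18 and 67.7% below 0. Of them 19.8% had an unadjusted p below 0.05, and 9.82% passed with the block and were lower. The SD of the log2 fold changes was 0.45 for the 8 Ndufaf genes and 0.53 for genes in that range. NZO replicate 1 was the lowest array for 5 of the 8, against 56.6% of genes in that range.

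Ndufaf5 was the one Nduf gene with all NZO arrays above all BKS arrays, which 6.11% of all genes showed. Its enzyme hydroxylates an arginine of Ndufs7 during assembly. Its promoter is shown because Ndufaf5 lay on the other side of 0 from Ndufs7 with no overlap, and it holds the NRF1 letters from base 17 of the transcript.

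Ndufaf5, chr2:140170396-140170695, plus strand: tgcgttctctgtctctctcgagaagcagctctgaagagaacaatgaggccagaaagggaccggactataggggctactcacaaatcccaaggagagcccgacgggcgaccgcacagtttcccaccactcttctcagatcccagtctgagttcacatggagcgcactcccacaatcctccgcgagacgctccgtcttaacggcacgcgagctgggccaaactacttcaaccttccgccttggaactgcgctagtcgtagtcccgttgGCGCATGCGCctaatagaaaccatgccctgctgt

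In BKS, Ndufaf5 read 6.56, 6.82 and 6.81, and in NZO 7.05, 7.78 and 7.14. The lowest NZO array was NZO replicate 1, and it exceeded every BKS array. Means were 6.73 ± 0.14 in BKS and 7.32 ± 0.40 in NZO (SD, n = 3 each), a log2 fold change of 0.59 (95% interval 0.07 to 1.12), or 1.51-fold higher. The limma adjusted p was 0.376, and 0.0989 with the block. Without NZO replicate 2 the difference was 0.37. Ndufaf8, which stabilises Ndufaf5, read 10.42, 10.96 and 10.68 in BKS and 9.79, 10.46 and 10.75 in NZO (difference -0.35, adjusted p = 0.697). Its strains overlapped, a second probe set gave 0.04, and without NZO replicate 1 the difference was -0.09, without BKS replicate 2 -0.22 and without NZO replicate 3 -0.56.

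Ndufaf2 is a chaperone that leaves the complex when Ndufa12 enters. It read 7.07, 8.23 and 8.47 in BKS and 6.52, 7.71 and 7.11 in NZO, with NZO replicate 1 lowest and BKS replicate 1 inside the NZO range. The log2 fold change was -0.81 (95% interval -1.81 to 0.20), with a limma adjusted p of 0.545. With the arrays titled number 1 as a block the adjusted p was 0.0465, and the 2 against 2 arrays differed by -0.94 (adjusted p = 0.0603). Without NZO replicate 1 the difference was -0.51, without BKS replicate 3 it was -0.53 and without BKS replicate 1 it was -1.23.

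Ndufaf3 and Ndufaf4 act together early on the ubiquinone module. Ndufaf3 read 8.40, 9.21 and 9.25 in BKS and 8.09, 8.76 and 8.70 in NZO (difference -0.44, limma adjusted p = 0.637), with -0.23 without NZO replicate 1, -0.29 without BKS replicate 3 and -0.72 without BKS replicate 1. Ndufaf4 read 9.39, 9.40 and 9.27 in BKS and 8.80, 9.65 and 8.999 in NZO (difference -0.20, adjusted p = 0.812). Both overlapped, and for Ndufaf4 an NZO array was the highest of the 6.

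The remaining factors also overlapped. Ndufaf1, part of the complex that builds the membrane arm, read 8.84, 9.56 and 9.60 in BKS and 8.57, 9.60 and 9.27 in NZO (difference -0.18, limma adjusted p = 0.886). Ndufaf6, needed early in membrane-arm assembly, read 7.71, 8.83 and 8.71 in BKS and 8.26, 9.03 and 9.17 in NZO (difference 0.40, adjusted p = 0.744). Its BKS replicate 1 was the lowest of the 6 arrays, and without that array the difference was 0.05. Without NZO replicate 3 it was 0.23, without BKS replicate 2 0.61 and without NZO replicate 1 0.68. Ndufaf7, a methyltransferase, read 7.08, 7.44 and 7.53 in BKS and 7.30, 7.82 and 6.85 in NZO (difference -0.03, adjusted p = 0.983). The plot of assembly factors by array shows these values for all 8 genes.

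**Figure D4:**
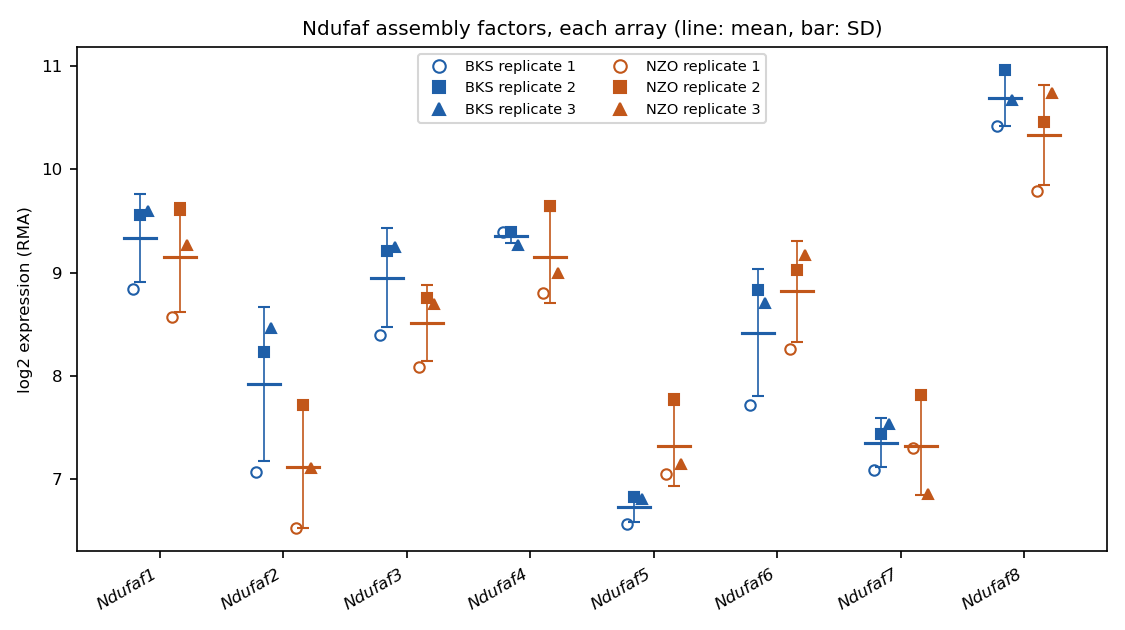
Log2 expression of the 8 Ndufaf genes (vertical axis) on each BKS and NZO array, with the strain mean and SD (n = 3 each). Ndufaf5 has all NZO arrays above all BKS arrays, at 7.05 to 7.78 against 6.56 to 6.82, and the other 7 genes overlap between strains.

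Of the 88 probe sets with a single Nduf symbol, 44 were not the brightest of their gene. Among these, 34 had a mean of at least 6, and 29 of the 34 had the same sign as the probe set used. In limma 0 of the 44 passed at an adjusted p below 0.05, and 5 had an unadjusted p below 0.05, against 11.3% of all single-symbol probe sets. For 9 of the 44 all NZO arrays lay below all BKS arrays, against 9.36% of all single-symbol probe sets and 19.8% of genes at 10 or more, and for 1 all lay above, against 7.19%.

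Other genes of the pathway were followed through lists. Of 10 further complex I assembly factors measured, 0 passed in limma without the block and 2 had an unadjusted p below 0.05, against 11.4% of all genes and 19.8% of genes at 6.5 to 9.5. Their median log2 fold change was 0.01, with 5 below 0. With the block 2 passed and were lower, against 5.04% of all genes and 9.82% of genes at 6.5 to 9.5. Dmac1, a factor of the membrane arm, had -0.76 (adjusted p = 0.0183 with the block) and Foxred1, a flavoprotein, had -0.65 (adjusted p = 0.0452 with the block). Without it, their adjusted p was 0.421 and 0.276. Acad9, a partner of Ndufaf1, stood higher in NZO at 0.64 (adjusted p = 0.539). Between the 2 against 2 arrays Dmac1 differed by -0.73 (adjusted p = 0.0466), Foxred1 by -0.73 (adjusted p = 0.0659) and Acad9 by 0.78 (adjusted p = 0.0458). ND5, a proton-pumping core subunit of mitochondrial DNA, read 13.97, 13.98 and 13.98 in BKS and 13.03, 14.31 and 14.17 in NZO. Only NZO replicate 1 lay below BKS, and the difference was -0.14 (adjusted p = 0.920).

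Among 12 regulators of nuclear and mitochondrial respiratory genes, 0 passed in limma without the block. In that fit 3 had an unadjusted p below 0.05, against 11.4% of all genes and 19.8% of genes at 6.5 to 9.5. In all, 11 lay below 0, and the median was -0.31. With the block 3 passed and were lower in NZO, against 5.04% of all genes and 9.82% of genes at 6.5 to 9.5: Polrmt, the mitochondrial RNA polymerase, and Ppargc1b and Pprc1, coactivators of the PGC-1 family. Polrmt read 9.11, 9.45 and 9.46 in BKS and 8.34, 8.94 and 8.33 in NZO (difference -0.80, adjusted p = 0.200 without and 0.0356 with the block). Ppargc1b read 7.95, 8.42 and 8.44 in BKS and 7.34, 7.79 and 7.28 in NZO (difference -0.80, adjusted p = 0.195 without and 0.0321 with the block). Pprc1 read 8.00, 7.56 and 7.48 in BKS and 7.12, 6.03 and 6.64 in NZO (difference -1.08, adjusted p = 0.200 without and 0.0143 with the block). For these 3 genes all NZO arrays lay below all BKS arrays, as for 10.9% of all genes and 16.4% of genes at 6.5 to 9.5. NZO replicate 1 was not the lowest array of Polrmt, Ppargc1b or Pprc1. It lay close to the lowest for Polrmt (8.34 against 8.33) and Ppargc1b (7.34 against 7.28). Between the 2 against 2 arrays Polrmt differed by -0.82 (adjusted p = 0.0817), Ppargc1b by -0.90 (adjusted p = 0.0480) and Pprc1 by -1.19 (adjusted p = 0.0257). Nrf1, Gabpa, Yy1 and Esrra, whose motifs were searched, differed by -0.32, -0.06, -0.54 and -0.04, and Ppargc1a by -0.06.

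The shares of promoters that hold the 4 motifs were not tested. Promoters were read for 31 of the 34 subunit genes, 33 promoters in all, and 15 of these genes held at least 1 motif. Promoters of Nduf genes on chromosome 18, where Ndufa2 lies, were left out, while the count of all promoters kept that chromosome. The NRF1 letters were in 18.2% of subunit promoters and 4.60% of all 32851 promoters of the same length. AAGATGGC was in 18.2% and 2.75%, ACCGGAAG in 9.09% and 2.30%, and AAGGTCA in 9.09% and 4.72%. The last 2 motifs were in only 3 of the 33 subunit promoters each. AAGATGGC was found for Ndufa3, Ndufa9, Ndufb8, Ndufc1, Ndufs4 and Ndufs7, and ACCGGAAG for Ndufb6, Ndufs3 and Ndufs8. Each set holds genes whose strains overlapped and a core gene whose strains did not.

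Other protein complexes were mostly lower in NZO as well, as were genes at 10 or more, whose median was -0.32 with 83.4% below 0. Complexes II to V had a median of -0.27 over 41 genes, with 37 below 0, and the mitochondrial ribosome -0.29 over 76 genes, with 67 below 0. The cytosolic ribosome, which lies outside mitochondria, had -0.36 over 47 genes, with 42 below 0. NZO replicate 1 was the lowest array for 39 of the 41 genes of complexes II to V. Without that array the medians were -0.00 for complexes II to V, 0.03 for the mitochondrial ribosome and -0.00 for the cytosolic ribosome. Between the 2 against 2 arrays the medians were -0.20 for complex I subunits, -0.04 for complexes II to V, -0.19 for the mitochondrial ribosome and -0.05 for the cytosolic ribosome. No test compared these lists. With each array centred on its genes at 10 or more, which moved the median of all genes to 0.31, the complex I median became -0.08, with 21 of 34 below 0, and 0 of 34 passed, against 0.665% of all genes. On that scale the median was 0.07 for complexes II to V, 0.04 for the mitochondrial ribosome and -0.02 for the cytosolic ribosome. Ndufs7 stood at -0.64 and Ndufs8 at -0.44 after the same centring.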

How the data were processed

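The deposited log2 values, 1 for each probe set and array, are RMA output. The submitters' processing notes name Affymetrix Expression Console. Versions, and whether other arrays were normalized with these 6, are not given in the sources used here. The gene values still differ in spread between arrays (10th to 90th percentile, 5.22 to 6.29), and no depth or detection call comes with the values, so the number of arrays limits the precision. Of 45101 probe sets, 34945 had 1 gene symbol in the platform annotation, 932 had several, 9160 were not in that table and 64 were controls. No genome build applies to the arrays. Strains came from the labels, and replicate numbers follow accession order and pair nothing.

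NZO was tested against BKS by limma (version 3.58.1, under R 4.3.3) with lmFit and eBayes, two-sided, and Benjamini-Hochberg adjustment over all 18193 genes. The test was checked on simulated data with independent noise for each gene. There it recovered 22% of 100 genes changed by 1 log2 and 76% of 100 genes changed by 2, with 4 false calls. These shares varied with the random draw. A gene that did not pass is thus not shown to be equal between strains. Values in all arrays are given for core subunits, Ndufab1, Ndufa4, Ndufa4l2, Ndufaf genes, the 5 smallest p in each accessory group, members above 0 and members passing with or without the block. Members and lists were chosen with earlier results of these data known. Alternatives changed the normalization, dim-gene filter, probe set, variance model, array weights and arrays. The centring on genes at 10 or more was chosen after seeing the data. Figures used matplotlib 3.10.9 in Python 3.11.15.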

Additional observations from a re-analysis of the deposited data

How the results depend on the processing

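No paired analysis was possible because the strains share only the title number 1, so fewer than 2 numbers match. The count of genes called was 135. It was 422 after quantile normalization again, 409 after cyclic loess, 217 with arrays centred on their medians, 234 with eBayes trend, 1298 with array weights, 1192 with the number 1 arrays as a block and 912 with 2 against 2 arrays. Leaving out 1 array gave 27 to 258. Subunits called went from 0 to 3 with the block, and stayed at 0 when any 1 array was left out.

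The subunit median was -0.42 and stayed below 0 throughout, at -0.14 after quantile normalization again, -0.09 after cyclic loess (genes at 10 or more -0.02 and 0.01), -0.87 in the number 1 arrays alone and from -0.61 to -0.07 with 1 array left out, the last without NZO replicate 1. The Ndufaf median of -0.20 turned to 0.10 after quantile normalization, 0.10 after loess and 0.14 when centred on genes at 10 or more, and ranged from -0.42 to -0.03 with 1 array left out. In all these cases the cause was not tested.

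Some small differences changed sign. After quantile normalization, cyclic loess and centring on genes at 10 or more, in that order, Ndufa4 had 0.05, 0.11 and 0.11, Ndufab1 0.23, 0.26 and 0.27, Ndufaf1 0.10, 0.12 and 0.15, Ndufaf4 0.093, 0.097 and 0.13, Ndufaf7 0.10, 0.11 and 0.31, and Ndufs1 0.22, 0.22 and 0.24. Ndufv2 had 0.035 after loess and 0.037 when centred. With 2 against 2 arrays, Ndufa4 had 0.007, Ndufab1 0.089, Ndufs1 0.086 and Ndufv2 0.001. With array weights, Ndufab1 had 0.018 and Ndufs1 0.023. In the number 1 arrays alone, Ndufaf7 had 0.21. With probe sets free of the suffixes _a_at, _s_at and _x_at, Ndufa12 had 0.28, from a dim set, and Ndufaf8 0.044. With 1 array left out, Ndufa4 ranged from -0.48 to 0.25, Ndufab1 from -0.29 to 0.25, Ndufaf1 from -0.43 to 0.10, Ndufaf7 from -0.28 to 0.21, Ndufb4 from -0.023 to 0.22, Ndufs1 from -0.27 to 0.16, Ndufs3 from -0.64 to 0.013 and Ndufv2 from -0.51 to 0.061. Ndufs7, Ndufs8, Ndufv1 and Ndufv3 stayed below 0 and Ndufaf5 above 0 in every alternative run for them.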

Other observations

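A dimmer probe set of Ndufab1 (mean 6.25) read 7.15, 6.61 and 6.35 in BKS and 5.65, 5.87 and 5.85 in NZO, a difference of -0.91 (adjusted p = 0.186), while the probe set used gave -0.07. A dimmer probe set of Ndufs4 read 7.93, 8.26 and 8.21 in BKS and 6.81, 7.64 and 7.56 in NZO, a difference of -0.80 (adjusted p = 0.283), and the probe set used gave -0.24. A dim probe set of Ndufb8 (mean 5.53) read 5.90, 6.12 and 6.36 in BKS and 5.13, 4.18 and 5.45 in NZO, a difference of -1.20 (adjusted p = 0.225). These 3 probe sets had no overlap between strains and were singled out after their values were seen. What transcript each of them detects was not tested.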
